A study of Mus musculus with 21 samples.

Results

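The genes of the voltage-gated sodium and calcium channels were followed in cultured mouse cortical neurons whose inhibition had been blocked. The members were all genes of the deposited table whose symbols begin with Scn and end in a subunit number and letter, or begin with Cacna1, Cacna2d, Cacnb or Cacng. This gave 40 of 24984 listed genes: 10 sodium channel alpha and 4 sodium channel beta genes, and 10 calcium channel alpha1, 4 alpha2delta, 4 beta and 8 gamma genes. Of these, 39 passed the filter on low counts, as did 16959 genes in all. Scn10a did not pass, with at most 5 counts in any library. The fall of Scn4b under bicuculline was known when the members were chosen, so its response to bicuculline is given as a description with no test, although the counts of called members include it. The rule for the other members used their names.

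The cultures came from CD1 mice of mixed sex and were used on day 17 in vitro. Every culture was first kept for 30 min with either DMSO or 25 µM MM401, a compound that blocks the interaction of the histone methyltransferase MLL1 with its partner WDR5. Cultures then received 40 µM bicuculline methiodide, which blocks GABA-A receptors and so raises network activity, or water, for 1 h or 4 h. In the last 30 min, 2 mM bromouridine was present, and the labelled RNA was captured and sequenced (BrU-seq). The counts therefore reflect RNA made in that window, exons and introns together, and not the standing pool of mRNA. The groups analysed were DMSO with water for 4 h, DMSO with bicuculline for 1 h or 4 h, MM401 with water for 1 h or 4 h, and MM401 with bicuculline for 1 h or 4 h. Each had 3 libraries except MM401 with water for 4 h, which had 2, because its replicate 3 held 316741 counts, 0.503% of the median library, and was left out. A DMSO water group at 1 h was not analysed here, so bicuculline at 1 h in DMSO was compared with water at 4 h, and treatment and time differ together in that comparison. In the MM401 arm each time had its own water group. MM401 was present in every group of that arm, its water controls included.

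Voltage-gated sodium channels carry the rising phase of the action potential. A single large alpha subunit forms the pore and the voltage sensors, and small beta subunits with a single membrane span bind beside it, change its gating and act as adhesion molecules. In the central nervous system Scn1a, Scn2a, Scn3a and Scn8a encode the main alpha subunits, while Scn4a is known from skeletal muscle, and Scn9a, Scn10a and Scn11a from sensory neurons. Voltage-gated calcium channels let calcium in on depolarisation and so link electrical activity to transmitter release, excitability and gene expression. Their pore is the alpha1 subunit, which defines the L type (Cacna1c, Cacna1d, Cacna1f, Cacna1s), the P/Q type (Cacna1a), the N type (Cacna1b), the R type (Cacna1e) and the T type (Cacna1g, Cacna1h, Cacna1i). The extracellular alpha2delta and the cytoplasmic beta subunits bring the pore to the membrane and set its gating. Most gamma proteins found in brain (Cacng2, Cacng3, Cacng4, Cacng5, Cacng7, Cacng8) are better known as TARPs, which traffic AMPA-type glutamate receptors and shape their gating.

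Promoter sequence is shown for 4 members that stand for the main patterns described below: Scn4b, which fell furthest, Scn2b, its neighbour on the same strand that also fell, Cacna1i, a pore gene that fell at 4 h, and Cacna2d1, which rose at 4 h in both arms. RefSeq promoter entries on GRCm38.p6 matched 30 of the 40 members, with 41 entries between them. Each line gives the 250 bases before the annotated start, 5′ to 3′ on the plus strand, and capitals mark matches to the motifs named after the sequences.
Scn4b, chr9:45138374-45138623: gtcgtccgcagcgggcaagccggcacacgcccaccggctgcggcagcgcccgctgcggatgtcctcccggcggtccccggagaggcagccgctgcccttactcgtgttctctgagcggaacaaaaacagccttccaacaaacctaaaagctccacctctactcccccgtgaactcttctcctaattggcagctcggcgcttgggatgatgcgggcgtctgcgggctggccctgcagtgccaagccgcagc
Scn2b, chr9:45117626-45117875: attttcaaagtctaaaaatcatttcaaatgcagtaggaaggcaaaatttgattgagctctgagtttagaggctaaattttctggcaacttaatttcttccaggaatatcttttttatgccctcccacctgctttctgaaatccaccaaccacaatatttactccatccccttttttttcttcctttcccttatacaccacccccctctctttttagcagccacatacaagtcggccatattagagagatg
Cacna1i, chr15:80286988-80287237: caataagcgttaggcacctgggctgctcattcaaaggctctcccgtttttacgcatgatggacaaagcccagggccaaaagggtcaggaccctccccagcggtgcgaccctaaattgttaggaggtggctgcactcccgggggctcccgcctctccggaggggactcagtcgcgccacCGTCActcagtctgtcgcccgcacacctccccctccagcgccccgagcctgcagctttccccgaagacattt
Cacna2d1, chr5:15934441-15934690: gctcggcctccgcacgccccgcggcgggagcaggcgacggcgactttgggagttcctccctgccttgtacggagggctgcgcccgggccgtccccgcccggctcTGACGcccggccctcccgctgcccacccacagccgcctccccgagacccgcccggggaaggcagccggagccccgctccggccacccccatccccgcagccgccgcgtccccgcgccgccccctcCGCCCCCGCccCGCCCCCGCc

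The 4 windows differ widely in base composition. The Scn4b window is 66.0% G and C with 23 CpG dinucleotides, whereas that of Scn2b is 38.4% with 1 CpG, against a median of 52.4% and 6.0 CpG over all 32851 promoter windows. The Cacna1i window has 62.4% with 16 CpG, and the Cacna2d1 window 82.4% with 36. Searches on both strands covered 5 motifs. The full cAMP response element TGACGTCA was in 1.55% of all windows and in 0 of the 41 member windows, and its shorter form TGACG, which lies inside the full element, was in 17.8% of all windows and 6 member windows (14.6%), among them Cacna1i and Cacna2d1. The AP-1 site TGANTCA was in 6.75% of all windows and in 1 member window, that of Cacng5. The EGR site GCGNGGGCG was in 4.7% of all windows and in 6 member windows (14.6%): Cacna1b, Cacna1c, Cacna2d1, Cacna2d2, Scn7a and Scn8a. TATAAA was in 12.4% of all windows and in those of Cacna1d and Scn2a, 4.88% of the member windows. None of these letters occurs in the Scn4b or Scn2b window, and a match is a description of the letters only.

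The 20 libraries held between 49886348 and 87939384 counts in genes, and the members took 0.593% to 0.727% of them. The common biological coefficient of variation was 8.77%. DMSO water replicate 1 stood furthest from its group: it had 62.2% of its counts in genes 100 kb or longer, against 56.9% to 57.97% in its 2 fellow libraries, and 0.727% in the members, against 0.653% and 0.606%. In MM401 with bicuculline, replicate 3 was apart by less, with 60.1% against 63.2% and 63.5% at 1 h, and 58.4% against 60.9% and 60.8% at 4 h. Since 19 of the 39 tested members are at least 100 kb long, values without DMSO water replicate 1 are given beside the members where it changed a call or moved a value clearly. The activity-induced genes Fos, Npas4 and Bdnf rose in each of the 4 bicuculline against water comparisons, with log2 fold changes of 1.18, 3.43 and 2.66 at 4 h in DMSO. Markers of glutamatergic and GABAergic neurons, the cells expected of a cortical culture, were present: their lists summed to 665 to 836 and 359 to 393 CPM (counts scaled to library size with edgeR's TMM factors) in the DMSO water libraries. Dlx1 was listed at 0 in the GABAergic list. Astrocyte markers summed to 1150.1 to 1642 CPM, so glia were in the cultures too.

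At rest the members spanned the whole range of transcription. Levels between genes are compared here as CPM per kb of gene, in the 3 DMSO water libraries. The highest was Scn2a, the main sodium pore gene of young cortical axons, at 3.04 ± 0.502 CPM per kb (mean ± SD, n = 3). Next came the TARP gene Cacng8 at 2.49 ± 0.428, the alpha2delta gene Cacna2d1 at 2.31 ± 0.392, the N-type pore gene Cacna1b at 1.91 ± 0.393 and the beta gene Cacnb4 at 1.67 ± 0.34998 CPM per kb. Scn3a, Scn3b, Scn8a, Cacna1e and Cacna1a followed, with means between 1.65 and 1.35 CPM per kb. The members' median was 0.671 CPM per kb against 0.620 for all genes tested, and 21 of the 39 lay above that value. Scn4b stood at 0.288 ± 0.0138 CPM per kb, rank 28 among the 40. At the low end was Scn10a at 0.000317 ± 0.000134 CPM per kb. Neighbours in this order mostly could not be separated: in 32 of 39 neighbouring pairs the ranges of the 3 libraries overlapped. Among the pairs that did not overlap were Cacng2 and Cacna1h, Scn4b and Cacna2d2, Cacna2d2 and Cacng1, Cacng1 and Scn9a, Scn9a and Cacng6, and Scn4a and Scn10a. Across the DMSO water libraries 32 members averaged 1 CPM or more.

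**Figure D1:**
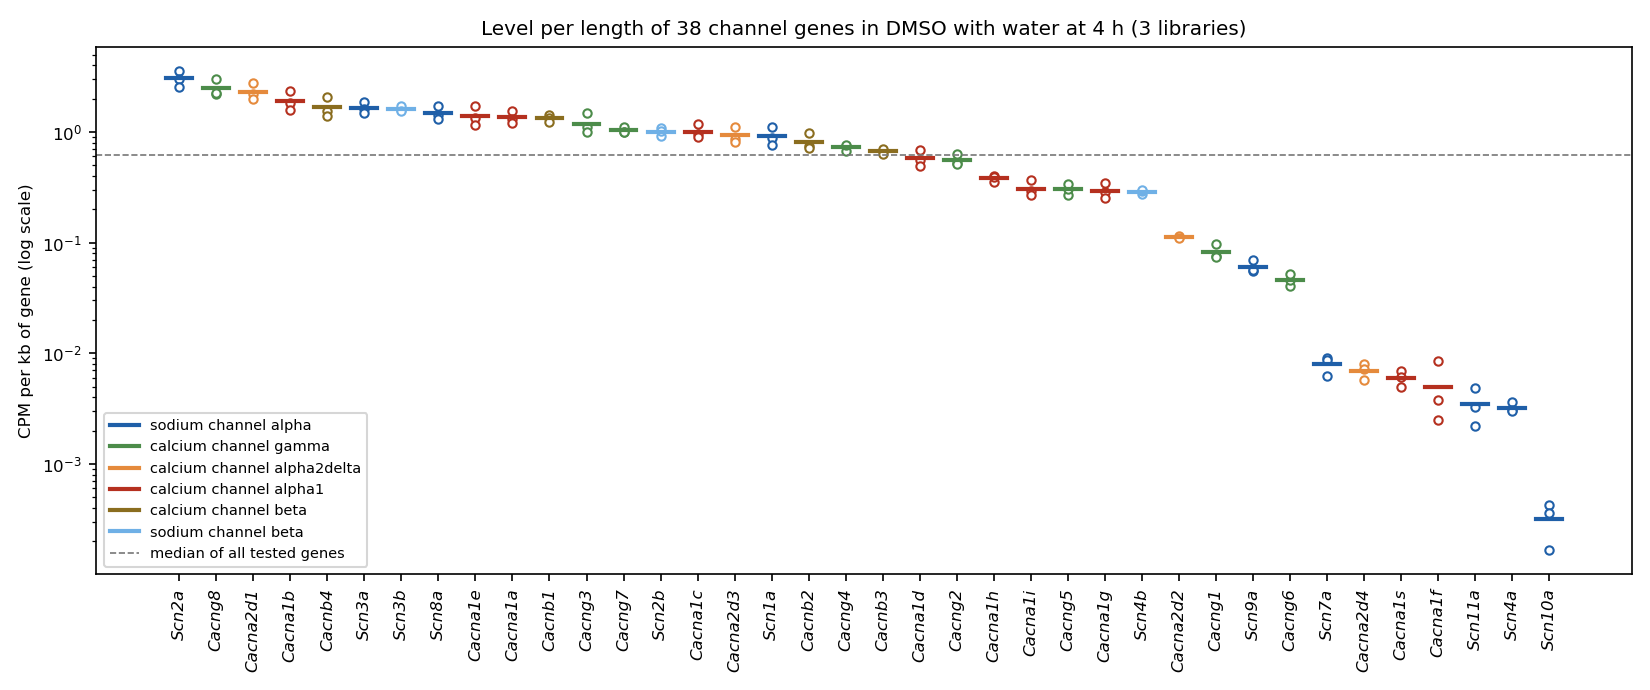
Level of 38 channel genes in the DMSO water group, as CPM per kb of gene on a log axis; points are the 3 libraries, short lines their means, colours the subunit family, and the dashed line the median of all genes tested. Scn2a is highest at 3.04 CPM per kb, Scn4b lies at 0.288, and most neighbours overlap.

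The members are long genes, with a median length of 97.7 kb against 23.1 kb for all genes tested. Several lie in clusters: Scn3a, Scn2a, Scn1a, Scn9a and Scn7a on chromosome 2, Scn10a and Scn11a on chromosome 9, Cacng1, Cacng4 and Cacng5 on chromosome 11, and Cacng7, Cacng8 and Cacng6 on chromosome 7. Scn2b ends 8.55 kb before Scn4b begins on chromosome 9. Another gene overlaps 9 members (Cacng8, Scn2b, Cacna1c, Cacna2d3, Cacnb2, Cacna1d, Cacna1h, Scn9a and Cacna2d4). Whether the counting used strand is not given in the sources used here, so reads of an overlapping gene cannot be told apart from theirs.

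Bicuculline moved many channel genes, in both directions at 4 h in DMSO and mainly downwards at 4 h under MM401. A member is called when its edgeR quasi-likelihood p, adjusted by Benjamini-Hochberg over all 16959 genes, is under 0.05. At 1 h in DMSO 11 of 39 members were called (28.2%), 4 higher and 7 lower, against 44.6% of all genes tested (20% higher, 24.5% lower). At 4 h in DMSO 24 were called (61.5%), 10 higher and 14 lower, against 49.2% (23.7% higher, 25.5% lower). At 1 h under MM401 10 were called (25.6%), 3 higher and 7 lower, against 39.9% (18.1% higher, 21.8% lower). At 4 h under MM401 21 were called (53.8%), 3 higher and 18 lower, against 44.6% (23% higher, 21.7% lower). The members called lower at 4 h under MM401 thus made up 46.2% of the 39. The share called at 1 h was below that of all genes in both arms with TMM scaling, but above it in both with the length correction (53.8% of members against 44.1% of all genes in DMSO, 48.7% against 39.2% with MM401). With plain library sizes it was 46.2% against 51% in DMSO and 48.7% against 46.1% with MM401. At 4 h the share of members was above that of all genes with all 20 libraries. Under MM401 the 21 calls became 16 to 20 without 1 library and 15 with all 21. The share of all genes fell in those fits too, and that of members stayed above it. It was 41% against 32.5% without MM401 water replicate 2, 43.6% against 39.6% without bicuculline replicate 1, and 38.5% against 35.1% with all 21. Split by length, the members ran opposite ways in the 2 arms. Of members at least 100 kb long 52.6% were called at 4 h in DMSO and 57.9% under MM401, against 64% and 57% of all genes of that length. Of shorter members 70% and 50% were called, against 46.8% and 42.7% of all shorter genes. These shares were not tested against each other. The median log2 fold change of the 39 members was 0.03 and -0.06 at 1 h and 4 h in DMSO (all genes: -0.04 and -0.02), and -0.02 and -0.27 under MM401 (all genes: -0.002 and 0.02). The DMSO medians of the members became 0.14 and 0.13 when DMSO water replicate 1 was left out (all genes: -0.04 and -0.04). In bulk RNA, fewer cells of a type and less RNA per cell cannot be told apart, and this holds for every fall given here.

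The split into higher and lower depended on the scaling. With plain library sizes it was 2 higher and 16 lower at 1 h and 5 and 22 at 4 h in DMSO, and 3 and 16 at 1 h under MM401; that scaling moved the median of all genes at 4 h in DMSO to -0.30. With a correction for gene length the splits were 3 and 18, 8 and 18, and 3 and 16 in the same order, and with DESeq2 the 1 h splits were 7 and 7 in DMSO and 4 and 6 under MM401. Plain library sizes deepened several falls by over 1.5 times: at 1 h Cacnb1 to -0.43 in DMSO and, under MM401, Cacnb1 to -0.54, Cacnb3 to -0.63, Cacng7 to -0.40 and Scn2b to -0.60, and at 4 h in DMSO Cacna1g to -0.64 and Cacng4 to -0.45. The length correction took Scn9a at 1 h to -0.58 and Cacna1d at 4 h to -0.80 in DMSO. Without DMSO water replicate 1 there were 14 calls at 1 h in DMSO, 7 in each direction (all genes: 46.5%), and 20 at 4 h, 10 in each (all genes: 48.2%). The 1 h fit then gained Cacna1c (0.27 ± 0.09), Cacna2d3 (0.33 ± 0.09) and Cacnb2 (0.40 ± 0.10), all higher. The 4 h fit gained Cacna2d3 (0.28 ± 0.09) and lost 5 calls, among them Cacna1c, Cacna1g, Cacng4 and Scn11a.

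The pore-forming and auxiliary genes were also counted apart. In DMSO 3 of 19 pore-forming members were called at 1 h, all lower, against 8 of 20 auxiliary members, 4 higher and 4 lower, with 44.6% of all genes called (20% higher, 24.5% lower). At 4 h in DMSO the pore-forming genes had 2 higher and 7 lower and the auxiliary genes 8 higher and 7 lower, or 47.4% and 75% called, against 49.2% of all genes. Under MM401 the counts were 2 pore-forming members lower at 1 h, with 3 auxiliary higher and 5 lower, and at 4 h 1 higher and 9 lower against 2 higher and 9 lower. The shares called were 10.5% and 40% at 1 h (all genes: 39.9%) and 52.6% and 55% at 4 h (all genes: 44.6%). Without DMSO water replicate 1 the 1 h counts in DMSO were 1 higher and 3 lower of the pore-forming genes and 6 and 4 of the auxiliary genes, and the 4 h counts 2 and 4, and 8 and 6. The difference between the 2 classes was not tested. A fold of at least 1.5 was reached at 4 h by 11 called members in DMSO and 7 under MM401, against 16.7% and 17% of all genes tested. These make up 14 genes, 7 pore-forming and 7 auxiliary, and 13 of them are given below with every library. At this threshold in DMSO, Cacnb3 was just inside, with a log2 fold change of -0.64, and Cacnb2 just outside, with 0.57.

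**Figure D2:**
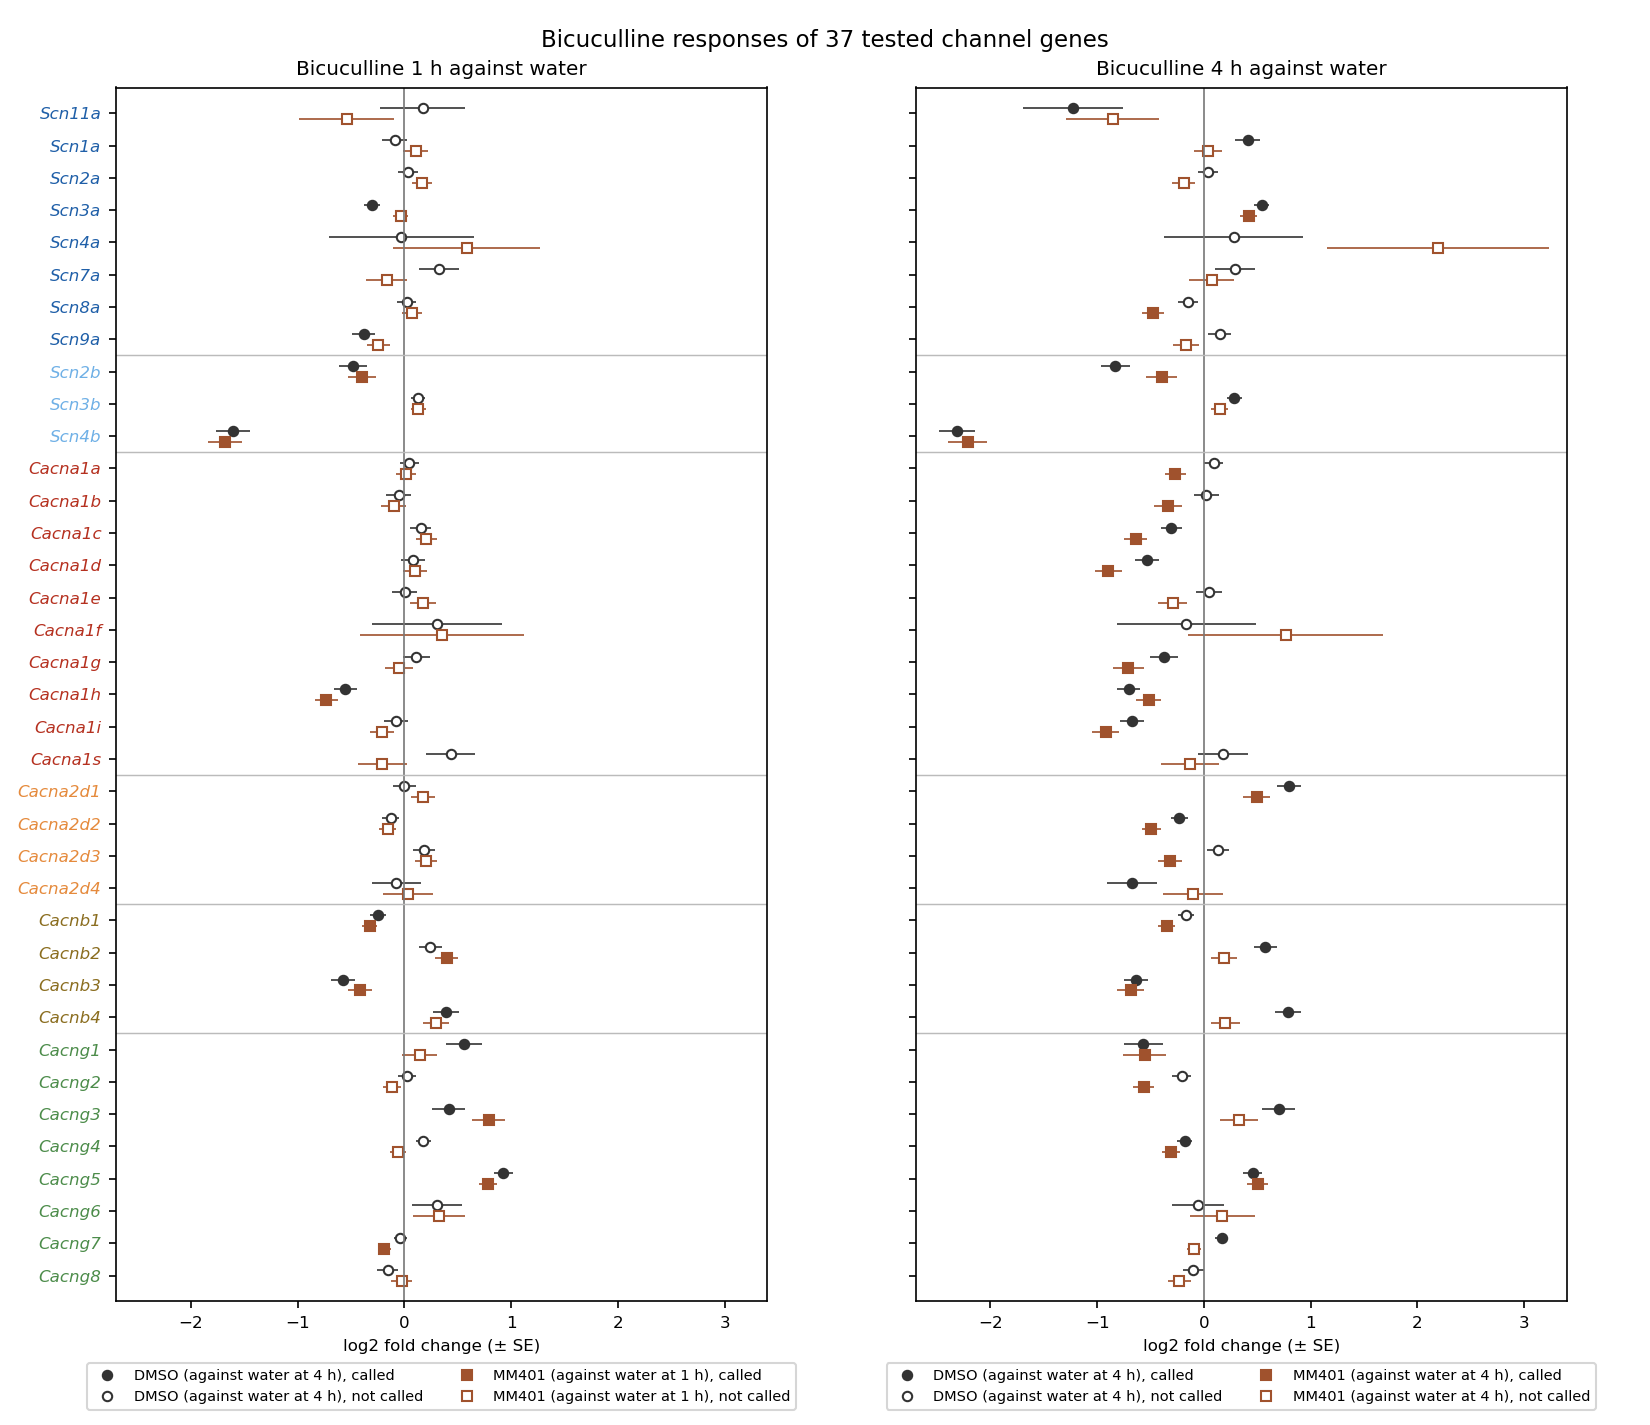
Log2 fold change of bicuculline over water ± SE for 37 of the tested channel genes, at 1 h (left) and 4 h (right); circles are DMSO, squares MM401, filled symbols pass an adjusted p of 0.05, and the colours of the gene names mark the subunit family. Scn4b lies far below every other member with a filled symbol, and at 4 h 9 of the genes shown are called higher and 13 lower in DMSO, against 3 and 17 under MM401.

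Among the sodium channel alpha genes the central nervous system members moved little at 1 h and apart from each other at 4 h. Scn3a (chr2:65457117-65567492 in the deposited mm10 coordinates), the pore gene most active in the developing brain, was singled out here after its values were seen because its direction changed with time. Its CPM was 205, 177 and 165 in the DMSO water libraries, 151, 148 and 143 with bicuculline at 1 h and 276, 267 and 253 at 4 h. All 3 libraries at 1 h lay below the water libraries and all 3 at 4 h above them. The log2 fold change was -0.30 ± 0.07 (SE) at 1 h and 0.54 ± 0.07 at 4 h, with edgeR adjusted p of 0.00158 and 1.86e-06. These values were -0.49 and 0.27 with plain library sizes, -0.48 and 0.35 with the length correction, and -0.21 ± 0.07 and 0.63 ± 0.07 without DMSO water replicate 1, all still called. Under MM401 Scn3a gave -0.03 ± 0.07 at 1 h, which was not called (edgeR adjusted p = 0.753), and 0.42 ± 0.08 at 4 h, which was (0.000234). Scn1a, the pore gene of fast-spiking interneurons, rose at 4 h in DMSO by 0.41 ± 0.11 (edgeR adjusted p = 0.00622), a call lost without DMSO water replicate 3 (0.27, edgeR adjusted p = 0.0616), with plain library sizes (0.15) and with the length correction (0.20), while it was 0.56 ± 0.11 without DMSO water replicate 1. Scn8a, the pore gene of mature axon initial segments, fell at 4 h under MM401 (-0.47 ± 0.10, edgeR adjusted p = 0.000629) and was at -0.15 ± 0.09 in DMSO, where it was not called, or -0.03 ± 0.08 without DMSO water replicate 1. Scn2a was called in none of the 4 comparisons, with values between -0.19 and 0.17 and edgeR adjusted p of 0.15 or more. Its 95% interval at 4 h in DMSO ran from -0.15 to 0.24, and the value was 0.17 ± 0.09 without DMSO water replicate 1, again not called.

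The sodium pore genes known from skeletal muscle or sensory neurons, and Scn7a, were near the limit of detection, apart from Scn9a. Scn11a (chr9:119753764-119825456) was at 0.35002, 0.235 and 0.159 CPM in the DMSO water libraries, 0.362, 0.216 and 0.236 with bicuculline at 1 h and 0.106, 0.102 and 0.0988 at 4 h. Under MM401 it was 0.259, 0.252 and 0.245 for water at 1 h, 0.0873, 0.317 and 0.105 after 1 h of bicuculline, 0.451 and 0.395 for water at 4 h and 0.128, 0.374 and 0.211 after 4 h of bicuculline. The 4 h groups did not overlap in either arm, though all levels were low. Under MM401 at 4 h the groups were also apart for uncalled members such as Scn2a, Cacna1e and Cacng8, so this says little by itself. The 4 h log2 change was -1.22 ± 0.47 in DMSO (edgeR adjusted p = 0.035) and -0.86 ± 0.44 under MM401, where it was not called (0.117). The DMSO call was lost in 5 of the 6 fits that left out 1 library, with values from -1.26 to -0.95 (without water replicates 2 and 1), and held without DMSO water replicate 3. Scn9a, a pore gene of sensory neurons, was lower at 1 h in DMSO (-0.38 ± 0.11, edgeR adjusted p = 0.00665), which was lost without bicuculline replicate 2 (-0.28, edgeR adjusted p = 0.0511). Scn4a, the skeletal muscle pore gene, and Scn7a, which encodes a sodium sensor, were called in none of the 4 comparisons. At 4 h the log2 value of Scn4a was 0.28 in DMSO and 2.19 in the MM401 arm, and that of Scn7a 0.29 and 0.07. The 7 skeletal muscle markers summed to at most 1.03 CPM in any library, near the limit of detection.

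Scn4b fell further than any other called member, within 1 h and in both arms. The gene (chr9:45138623-45154156) encodes the beta4 subunit, which is linked to the pore by a disulfide bond and is known for promoting resurgent sodium current in neurons that fire fast, and for its high level in striatal and cerebellar neurons. Its CPM was 4.24, 4.504 and 4.66 in the DMSO water libraries, 1.17, 1.86 and 1.32 with bicuculline at 1 h and 0.831, 0.951 and 0.914 at 4 h. In the MM401 arm the level was 4.82, 5.45 and 5.25 for water at 1 h, 1.46, 1.28 and 2.06 after 1 h of bicuculline, 5.18 and 5.07 for water at 4 h and 1.14, 0.991 and 1.18 after 4 h of bicuculline. All 8 water libraries lay between 4.24 and 5.45 CPM and all 12 bicuculline libraries between 0.831 and 2.06, so no library of one kind reached the other. At 1 h its log2 fold change was -1.61 ± 0.16 in DMSO and -1.68 ± 0.16 under MM401. At 4 h it was -2.31 ± 0.17 and -2.21 ± 0.18, a level 4.95-fold and 4.63-fold lower. Without DMSO water replicate 1 the 4 h value in DMSO was -2.34 ± 0.18. The promoter window of Scn4b printed above holds none of the motifs searched.

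Scn2b (chr9:45117875-45130070), which encodes the other disulfide-linked beta subunit and lies just before Scn4b on chromosome 9, also fell in all 4 comparisons, by less. Its CPM was 11.3, 13.2 and 12.4 in the DMSO water libraries, 8.45, 9.85 and 8.16 with bicuculline at 1 h and 6.24, 7.78 and 6.77 at 4 h. With MM401 present it was 9.65, 11.9 and 10.8 for water at 1 h, 6.77, 7.17 and 10.6 after 1 h of bicuculline, 11.5 and 10.4 for water at 4 h and 8.07, 8.14 and 8.77 after 4 h of bicuculline. The groups were apart in DMSO at both times and under MM401 at 4 h, while bicuculline replicate 3 at 1 h under MM401 lay among the water libraries. The fitted log2 change was -0.48 ± 0.13 at 1 h and -0.83 ± 0.13 at 4 h in DMSO (edgeR adjusted p = 0.00476 and 2.07e-05), and -0.39 ± 0.13 and -0.39 ± 0.15 under MM401 (0.0209 and 0.0333). The 4 h call under MM401 was lost without bicuculline replicate 1 (-0.37), bicuculline replicate 2 (-0.38) or water replicate 1 (-0.34). The 1 h call was lost without bicuculline replicate 1 (-0.28), bicuculline replicate 2 (-0.30) or water replicate 2 (-0.31), and the value was -0.62 without bicuculline replicate 3.

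Scn3b (chr9:40269215-40291618), which encodes a beta subunit that binds without a disulfide bond, went the other way in DMSO. It rose at 4 h by 0.29 ± 0.07 (edgeR adjusted p = 0.0013), from 36.2 ± 2.004 to 44.1 ± 2.48 CPM (mean ± SD, n = 3). With plain library sizes that value was 0.01 and the call was lost. Under MM401 at 4 h the value was 0.15 and not called.

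**Figure D3:**
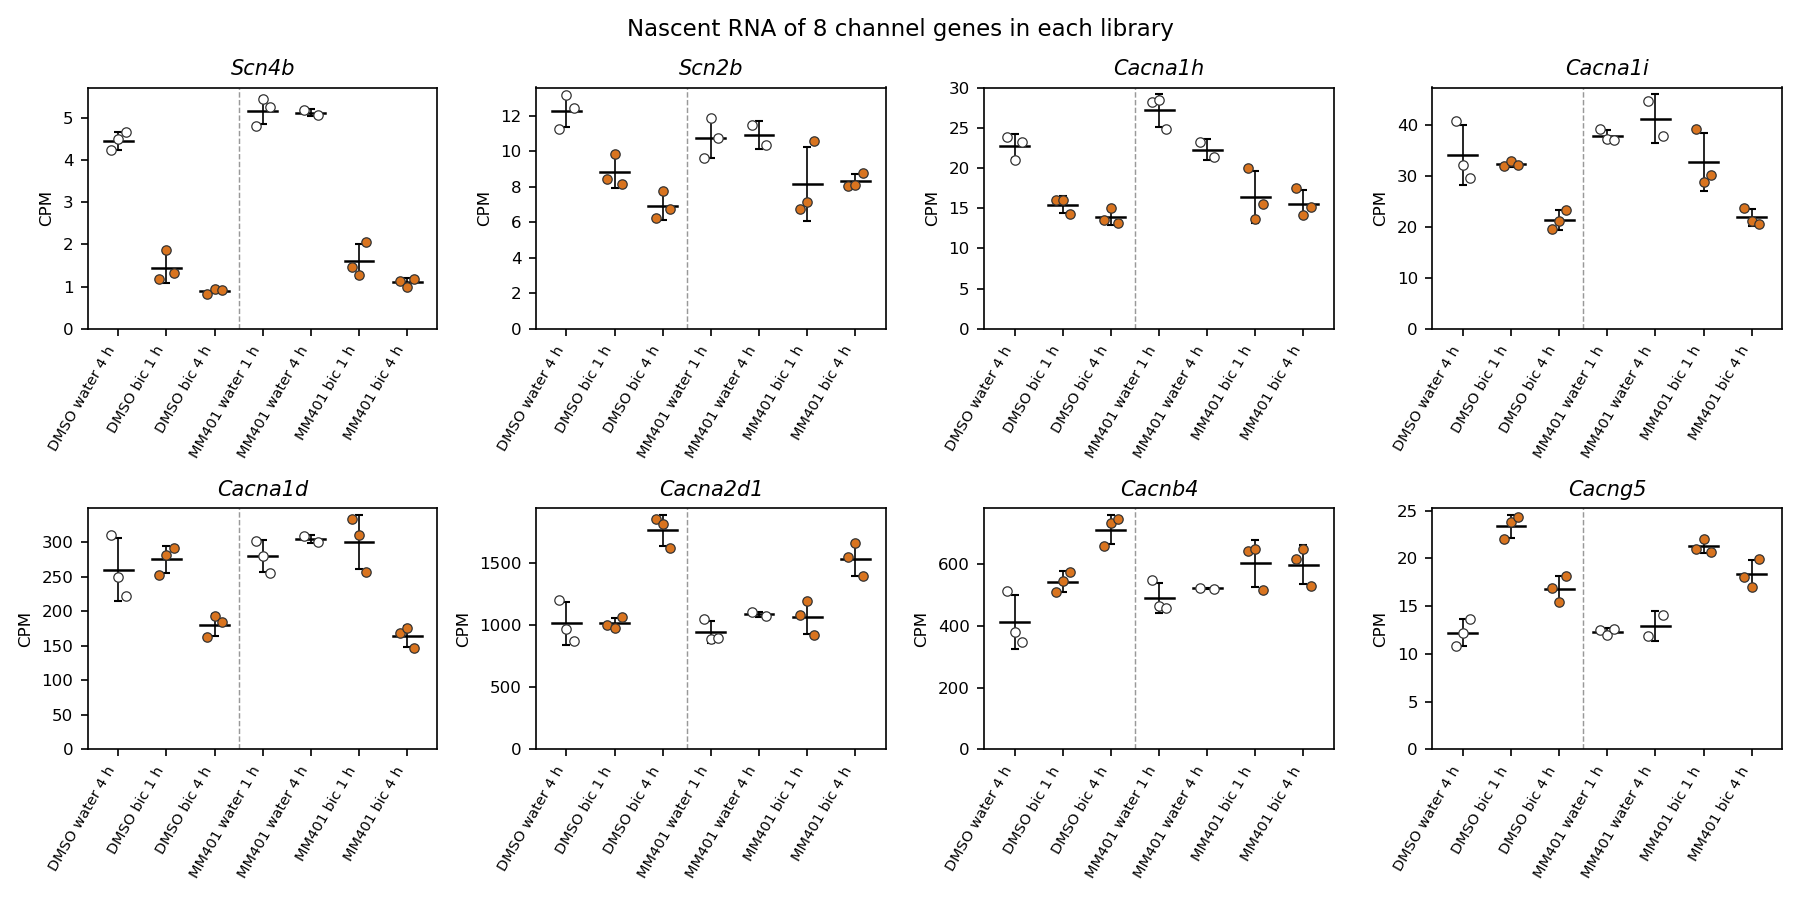
CPM of 8 channel genes in every library of the 7 groups; open circles are water, filled circles bicuculline, horizontal lines group means, bars SD, and the dashed line separates DMSO from MM401 (n = 3 per group, 2 for MM401 water at 4 h). Scn4b drops from 4.24 to 5.45 CPM in water to 0.831 to 2.06 with bicuculline, and Cacna1d is lowest in the 4 h bicuculline groups of both arms.

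The calcium channel alpha1 genes called with all 20 libraries all went down in the 4 comparisons with water. At 4 h 5 of the 10 were lower in DMSO and 7 under MM401 (all genes: 25.5% and 21.7% lower), and the T-type genes fell in both arms. Cacna1h (chr17:25374286-25433783), a T-type pore gene active near rest, was the alpha1 gene called lower in all 4 comparisons. Its CPM was 23.9, 21.01 and 23.2 in the DMSO water libraries, 16.05, 16.01 and 14.2 with bicuculline at 1 h and 13.6, 15.1 and 13.1 at 4 h. The MM401 libraries gave 28.2, 28.5 and 24.8 for water at 1 h, 19.97, 13.7 and 15.6 after 1 h of bicuculline, 23.2 and 21.4 for water at 4 h and 17.5, 14.1 and 15.1 after 4 h of bicuculline. Every bicuculline library lay below every water library of its comparison. On the log2 scale the change was -0.55 ± 0.11 and -0.70 ± 0.11 at 1 h and 4 h in DMSO and -0.73 ± 0.11 and -0.52 ± 0.12 under MM401, with edgeR adjusted p of 0.000249, 1.30e-05, 1.31e-05 and 0.00132.

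The other 2 T-type genes were called lower at 4 h and not called at 1 h. Cacna1i (chr15:80287237-80398292), known from thalamic reticular neurons, was at 40.8, 32.2 and 29.6 CPM in the DMSO water libraries, 31.9, 33.002 and 32.1 with bicuculline at 1 h and 19.6, 21.1 and 23.4 at 4 h. Under MM401 it was 39.3, 37.3 and 37.02 for water at 1 h, 39.4, 28.8 and 30.3 after 1 h of bicuculline, 44.7 and 37.97 for water at 4 h and 23.8, 21.2 and 20.6 after 4 h of bicuculline. The 1 h libraries overlapped their water libraries and the 4 h libraries lay below theirs. The log2 fold change at 4 h was -0.67 ± 0.11 in DMSO and -0.92 ± 0.13 under MM401 (edgeR adjusted p = 6.80e-05 and 8.65e-06), and -0.53 ± 0.10 in DMSO without water replicate 1. Cacna1g (chr11:94408390-94474198), known from thalamic relay neurons, was at 22.8, 18.7 and 16.5 CPM in the DMSO water libraries, 21.02, 21.95 and 19.7 with bicuculline at 1 h and 14.3, 16.2 and 14.1 at 4 h. Under MM401 the values were 26.3, 24.1 and 22.1 for water at 1 h, 27.4, 20.8 and 22.1 after 1 h of bicuculline, 27.1 and 21.2 for water at 4 h and 16.96, 14.9 and 12.4 after 4 h of bicuculline. Its 4 h groups did not overlap in either arm, by a small margin in DMSO and a wide one under MM401. The fitted log2 change was -0.38 ± 0.13 and -0.71 ± 0.15 (edgeR adjusted p = 0.023 and 0.000593). In DMSO the call was lost without water replicate 1 (-0.24 ± 0.13), bicuculline replicate 1 (-0.35) or bicuculline replicate 3 (-0.34).

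The 2 L-type pore genes of brain were not called at 1 h with all libraries and fell at 4 h. Cacna1d (chr14:30039940-30491156) encodes the L-type pore that opens at lower voltages and supports pacemaking. Its CPM was 310.0, 249.8 and 222 in the DMSO water libraries, 253, 282 and 292 with bicuculline at 1 h and 163, 194 and 185 at 4 h. In the MM401 arm the level was 302, 281 and 256 for water at 1 h, 333, 311 and 257 after 1 h of bicuculline, 309 and 301 for water at 4 h and 169, 176 and 147 after 4 h of bicuculline. The 1 h libraries overlapped water in both arms, and every 4 h library lay below. On the log2 scale the change at 4 h was -0.53 ± 0.11 in DMSO and -0.89 ± 0.12 under MM401 (edgeR adjusted p = 0.000615 and 9.17e-06). Leaving out DMSO water replicate 1 gave a DMSO value of -0.39 ± 0.10, still called (0.00418).

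Cacna1c (chr6:118587239-119196409), the L-type pore gene best known for signalling from the membrane to the nucleus, was among the most counted members. Its CPM was 712, 582 and 547 in the DMSO water libraries, 619, 716 and 711 with bicuculline at 1 h and 455, 525 and 511 at 4 h. With MM401 present it was 697, 678 and 608 for water at 1 h, 826, 786 and 671 after 1 h of bicuculline, 702 and 674 for water at 4 h and 458, 464 and 403 after 4 h of bicuculline. At 4 h the groups were apart in both arms, and at 1 h they overlapped. The log2 fold change at 4 h was -0.30 ± 0.10 in DMSO and -0.64 ± 0.11 under MM401 (edgeR adjusted p = 0.0143 and 6.53e-05). In DMSO the call was lost without water replicate 1 (-0.18 ± 0.09, edgeR adjusted p = 0.109) or bicuculline replicate 1 (-0.24, edgeR adjusted p = 0.081), and the value was -0.57 with plain library sizes and -0.60 with the length correction. The L-type genes known from retina and skeletal muscle, Cacna1f and Cacna1s, were called in none of the 4 comparisons, with values of -0.16 and 0.18 at 4 h in DMSO and 0.77 and -0.13 under MM401.

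The presynaptic pore genes were not called in DMSO. At 4 h Cacna1a (P/Q type) was at 0.09 ± 0.09, Cacna1b (N type) at 0.02 ± 0.12 and Cacna1e (R type) at 0.05 ± 0.12, with edgeR adjusted p of 0.435, 0.891 and 0.759, and their 95% intervals ran from -0.10 to 0.28, -0.22 to 0.27 and -0.20 to 0.30. Leaving out DMSO water replicate 1 moved these values to 0.20 ± 0.09, 0.19 ± 0.10 and 0.22 ± 0.11, again not called. Under MM401 Cacna1a was lower at -0.27 ± 0.10 and Cacna1b at -0.34 ± 0.13 (edgeR adjusted p = 0.0362 and 0.0408), while Cacna1e was at -0.29 ± 0.13 and not called (0.0782). Both calls were close to the threshold. That of Cacna1a was lost in each of the 5 fits without 1 library, with values from -0.32 to -0.23, and that of Cacna1b in 4 of them, from -0.40 to -0.27.

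Cacna2d1 rose at 4 h in both arms. The gene (chr5:15934690-16374511) encodes the main alpha2delta subunit of excitatory neurons, the protein that gabapentin binds. Its CPM was 1208, 970.4 and 873 in the DMSO water libraries, 1008, 978 and 1068 with bicuculline at 1 h and 1859.7, 1818 and 1626 at 4 h. The MM401 libraries gave 1050.2, 895 and 900.2 for water at 1 h, 1087, 1199 and 926 after 1 h of bicuculline, 1106 and 1076 for water at 4 h and 1549.9, 1663 and 1397 after 4 h of bicuculline. The 1 h libraries overlapped water in both arms and every 4 h library was higher. At 1 h the log2 value was 0.00 ± 0.11 in DMSO, where it was not called. At 4 h it was 0.80 ± 0.11 in DMSO and 0.49 ± 0.13 under MM401 (edgeR adjusted p = 3.73e-06 and 0.0029). The MM401 call was lost without water replicate 2 (0.44, edgeR adjusted p = 0.053), and the DMSO value was 0.52 with the length correction and 0.94 ± 0.10 without DMSO water replicate 1. Its promoter window, printed above, is the one of the 4 with EGR matches.

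Cacna2d2 and Cacna2d4 were lower at 4 h in DMSO. Cacna2d4 (chr6:119236525-119352407), known from retinal photoreceptors, was at 0.663, 0.927 and 0.836 CPM in the DMSO water libraries, 0.681, 0.854 and 0.788 with bicuculline at 1 h and 0.654, 0.483 and 0.42002 at 4 h. Under MM401 it was 0.647, 0.861 and 0.689 for water at 1 h, 0.851, 0.667 and 0.748 after 1 h of bicuculline, 0.451 and 0.705 for water at 4 h and 0.561, 0.374 and 0.663 after 4 h of bicuculline. In DMSO the 4 h groups were apart by a narrow margin, and under MM401 they overlapped. The fitted log2 change was -0.67 ± 0.24 in DMSO (edgeR adjusted p = 0.0228) and -0.10 ± 0.28 under MM401 (0.795). The call was lost without bicuculline replicate 2 (-0.63), bicuculline replicate 3 (-0.53) or water replicate 2 (-0.58). Cacna2d2, the subunit of cerebellar Purkinje cells, fell at 4 h, with log2 values of -0.23 ± 0.08 in DMSO and -0.49 ± 0.09 under MM401 (edgeR adjusted p = 0.0198 and 0.000122); the DMSO call was lost without bicuculline replicate 1 (-0.19), and the value was -0.51 with plain library sizes. Cacna2d3 was at 0.14 ± 0.10 in DMSO, or 0.28 ± 0.09 and called without DMSO water replicate 1. Under MM401 it fell, with a log2 value of -0.32 ± 0.12 (edgeR adjusted p = 0.0285). That call was lost without bicuculline replicate 3 (-0.27), water replicate 1 (-0.34) or water replicate 2 (-0.35).

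The calcium channel beta genes moved apart from each other. Cacnb3 (chr15:98632327-98644536), a beta gene prominent in brain N-type channels, fell in all 4 comparisons. Its CPM was 8.29, 8.59 and 7.71 in the DMSO water libraries, 4.81, 6.55 and 5.12 with bicuculline at 1 h and 4.62, 5.87 and 5.31 at 4 h. In the MM401 arm the level was 7.86, 8.16 and 7.78 for water at 1 h, 5.94, 6.099 and 5.82 after 1 h of bicuculline, 8.39 and 6.84 for water at 4 h and 4.98, 4.92 and 4.31 after 4 h of bicuculline. No bicuculline library reached its water libraries. On the log2 scale the change was -0.57 ± 0.11 and -0.64 ± 0.11 at 1 h and 4 h in DMSO and -0.41 ± 0.11 and -0.69 ± 0.13 under MM401 (edgeR adjusted p = 0.000321, 8.09e-05, 0.00604 and 0.000177).

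Cacnb4 (chr2:52428319-52676609), the beta gene mutated in the lethargic mouse, rose in DMSO. Its CPM was 512, 381 and 348 in the DMSO water libraries, 509, 544 and 576 with bicuculline at 1 h and 658, 733 and 746 at 4 h. With MM401 present it was 548, 465 and 459.8 for water at 1 h, 642, 650.3 and 515 after 1 h of bicuculline, 523 and 521 for water at 4 h and 618, 649 and 529.8 after 4 h of bicuculline. DMSO water replicate 1 was the high one of its group, yet every 4 h bicuculline library in DMSO was above it. The log2 fold change was 0.39 ± 0.12 at 1 h and 0.78 ± 0.12 at 4 h in DMSO (edgeR adjusted p = 0.0112 and 1.80e-05). Under MM401 it was 0.30 ± 0.12 and 0.20 ± 0.13, and neither was called (0.056 and 0.243). Its 4 h value in DMSO was 0.97 ± 0.11 without DMSO water replicate 1. The 1 h call was lost without water replicate 3 (0.30) and with the length correction (0.16). Cacnb2, the beta gene of heart channels that is also made in brain, rose at 4 h in DMSO (0.57 ± 0.11, edgeR adjusted p = 0.000164) and at 1 h under MM401 (0.40 ± 0.11, 0.00552); the latter call was lost with the length correction (0.14). It was not called at 1 h in DMSO (0.24 ± 0.11) or at 4 h under MM401 (0.19 ± 0.12). Without DMSO water replicate 1 the 1 h value in DMSO was 0.40 ± 0.10 and called. The 4 h value in DMSO was 0.31 with plain library sizes, 0.31 with the length correction and 0.73 ± 0.10 without DMSO water replicate 1. Cacnb1, the beta gene of skeletal muscle channels, fell at both times under MM401 (-0.33 ± 0.07 and -0.35 ± 0.08, edgeR adjusted p = 0.0013 and 0.00158). At 1 h in DMSO it was lower at -0.24 ± 0.07 (edgeR adjusted p = 0.01), a call lost without bicuculline replicate 1 (-0.21) or water replicate 2 (-0.21).

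Among the gamma genes Cacng5 was the one member called higher in all 4 comparisons, and it is named here because that was seen in the values. Cacng5 (chr11:107874604-107915055), a TARP gene, was at 10.8, 12.2 and 13.7 CPM in the DMSO water libraries, 22.003, 23.8 and 24.3 with bicuculline at 1 h and 16.9, 15.5 and 18.1 at 4 h. The MM401 libraries gave 12.5, 11.9 and 12.6 for water at 1 h, 21.04, 22.1 and 20.7 after 1 h of bicuculline, 11.9 and 14.04 for water at 4 h and 18.1, 17.04 and 19.95 after 4 h of bicuculline. Each bicuculline group lay wholly above its water group, and in DMSO the 1 h libraries were higher than the 4 h libraries. The fitted log2 change was 0.93 ± 0.09 and 0.46 ± 0.09 at 1 h and 4 h in DMSO and 0.78 ± 0.09 and 0.50 ± 0.10 under MM401 (edgeR adjusted p = 2.07e-08, 0.000163, 2.96e-07 and 0.000301). With plain library sizes the 4 h value in DMSO was 0.18 and not called (edgeR adjusted p = 0.183).

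Cacng3 (chr7:122671743-122769394), a TARP gene of cortical excitatory neurons, rose in DMSO. Its CPM was 144, 108 and 96.9 in the DMSO water libraries, 135, 156 and 174 with bicuculline at 1 h and 184, 188 and 196 at 4 h. Under MM401 it was 109, 101 and 96.2 for water at 1 h, 203, 197 and 131 after 1 h of bicuculline, 126 and 123 for water at 4 h and 165, 166 and 137 after 4 h of bicuculline. The 1 h groups overlapped in DMSO through water replicate 1, and the groups were apart in the other 3 comparisons. On the log2 scale the change was 0.42 ± 0.16 and 0.70 ± 0.16 in DMSO (edgeR adjusted p = 0.0402 and 0.00146) and 0.79 ± 0.16 and 0.33 ± 0.18 under MM401 (0.000793 and 0.143). The 1 h call in DMSO was lost without bicuculline replicate 2 (0.41), bicuculline replicate 3 (0.34), water replicate 2 (0.39) or water replicate 3 (0.32), and with plain library sizes (0.24), the length correction (0.25) or no filter on low counts (0.41). The values were 0.60 ± 0.15 and 0.88 ± 0.16 without DMSO water replicate 1, and with plain library sizes the 4 h value was 0.44.

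The other gamma genes moved less. Cacng2, which encodes stargazin, fell at 4 h under MM401 (-0.56 ± 0.10, edgeR adjusted p = 6.72e-05) and was at -0.21 ± 0.09 in DMSO, where it was not called (adjusted p = 0.0506), or -0.11 ± 0.08 without DMSO water replicate 1 (adjusted p = 0.314). Cacng4, a TARP gene high in immature neurons, was lower at 4 h at -0.18 ± 0.07 in DMSO and -0.31 ± 0.08 under MM401 (edgeR adjusted p = 0.0427 and 0.00358); the DMSO call was lost without water replicate 1 (-0.16 ± 0.08), water replicate 3 (-0.17) or bicuculline replicate 2 (-0.11). Cacng7 was higher by 0.17 ± 0.06 at 4 h in DMSO (edgeR adjusted p = 0.0248), a call lost without bicuculline replicate 2 (0.17), bicuculline replicate 3 (0.14), water replicate 2 (0.12) or water replicate 3 (0.12), and its sign turned with plain library sizes (-0.10). At 1 h under MM401 it was lower at -0.19 ± 0.06 (edgeR adjusted p = 0.0176), a call lost without bicuculline replicate 3 (-0.13), water replicate 1 (-0.18) or water replicate 3 (-0.16). Cacng8 and Cacng6 were called in none of the 4 comparisons.

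Cacng1 (chr11:107703217-107716476), the gamma subunit of skeletal muscle calcium channels, had a mean of only 1.09 ± 0.167 CPM in the DMSO water group. It rose to 1.61 ± 0.0911 CPM at 1 h and was 0.7305 ± 0.127 CPM at 4 h (mean ± SD, n = 3). The log2 fold change was 0.56 ± 0.17 and -0.57 ± 0.18 (edgeR adjusted p = 0.00933 and 0.0121). The call at 4 h was lost without bicuculline replicate 1 (-0.44) or water replicate 2 (-0.44), and that at 1 h with plain library sizes (0.37). Under MM401 the 4 h value was -0.55 ± 0.20 (0.0289 by edgeR, adjusted), and that call was lost without bicuculline replicate 1 (-0.52), bicuculline replicate 3 (-0.53) or water replicate 2 (-0.46).

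The 2 bicuculline times were also compared directly, which needs no water library. In DMSO 19 members differed between 4 h and 1 h, 7 higher and 12 lower at 4 h, against 34.2% of all genes tested (19.1% higher, 15.2% lower). Under MM401 17 differed, 3 higher and 14 lower, against 33.6% (17.5% higher, 16% lower). Scn3a rose between the times, by 0.84 ± 0.07 in DMSO and 0.73 ± 0.07 under MM401 (edgeR adjusted p = 8.67e-09 and 8.60e-08), as did Cacna2d1 in DMSO (0.80 ± 0.11, 6.94e-06 by edgeR, adjusted). Cacng1 fell between the times with log2 values of -1.12 ± 0.18 and -1.07 ± 0.18 (edgeR adjusted p = 2.73e-05 and 5.27e-05), and Cacna1d with -0.61 ± 0.11 and -0.87 ± 0.11 (0.000256 and 5.68e-06). Scn4b was lower still at 4 h than at 1 h, at -0.70 ± 0.18 in DMSO and -0.55 ± 0.18 under MM401. That difference moved with single libraries: the DMSO value was -0.46 without 1 h replicate 2, and the MM401 value was -0.34 without 1 h replicate 3 and -0.48 without 4 h replicate 2. Under MM401 with water, 0 members were called between 4 h and 1 h by edgeR, against 0.867% of all genes tested, and 4 had an unadjusted p under 0.05, against 10%. DESeq2 called 1 member there, against 275 of the 16959 genes tested. Water at 1 h against 4 h cannot be compared in DMSO.

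MM401 alone changed no member past the threshold. Between MM401 and DMSO in water at 4 h, edgeR called 0 of the 39 members, against 0.0826% of all genes tested. DESeq2 called 0 members, against 162 of the 16959 genes tested. An unadjusted p under 0.05 was reached by 8 members, against 12.9% of all genes. With bicuculline edgeR called 0 members at 1 h, against 0.0059% of all genes, and 0 at 4 h, against 0%. DESeq2 also called 0 members at each time, and 14 and 7 of all genes. An unadjusted p under 0.05 was reached by 0 members at 1 h (all genes: 3.18%) and by 6 at 4 h (7.72%). The median log2 difference of the members between MM401 and DMSO was 0.14 in water and -0.09 with bicuculline at 4 h, and that of all genes -0.01 and -0.003. The water median of the members was 0.22 with DMSO water replicate 1 left out (all genes: -0.02). Without DMSO water replicate 1 the water comparison called 6 members, all higher with MM401, against 7.5% of all genes tested: Cacna1a (0.38 ± 0.09), Cacna1b (0.41 ± 0.11), Cacna1i (0.42 ± 0.11), Cacna2d3 (0.34 ± 0.10), Cacnb4 (0.52 ± 0.11) and Cacng2 (0.43 ± 0.09). All 6 are at least 100 kb long. The comparison in water therefore turned on 1 library.

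The bicuculline responses of the arms were set side by side at 4 h, where each arm has its own water libraries. Of the 39 members 29 had the same sign in both arms, and 15 were called in both, each in the same direction. Those 15 are 62.5% of the DMSO calls and 71.4% of the MM401 calls, against 68.3% and 75.2% over all genes tested, of which 80.3% had the same sign in both arms. Another 9 were called in DMSO only and 6 under MM401 only, which does not show that the arms differ. The estimate was lower under MM401 for 28 of the 39, and for 46.1% of all genes tested. Across the 39 genes, which are not independent replicates, Pearson's r between the arms was 0.747 and Spearman's rho 0.843, against 0.762 and 0.751 over all genes tested.

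The difference between the arms was tested as an interaction. At 4 h edgeR called 0 members, against 0% of all genes tested, while 12 had an unadjusted p under 0.05, against 15%. At 1 h, where the 4 h water libraries of each arm served as its control, edgeR called 0, against 0%. There 2 members had an unadjusted edgeR p under 0.05, against 7.82%. DESeq2 called 0 members at 1 h, and 5 of all genes. At 4 h DESeq2 called 2, Cacna2d3 and Cacnb4, against 436 of the 16959 genes tested. Cacnb4 had an interaction of -0.59 ± 0.18 in edgeR, with an adjusted p of 0.229, and Cacna2d3 one of -0.45 ± 0.15 (0.233). The median interaction of the members at 4 h was -0.23, and that of all genes 0.03, or -0.28 and 0.04 with DMSO water replicate 1 left out. Without DMSO water replicate 1 edgeR called 12 members, all with a lower response under MM401, against 9.15% of all genes tested. They were Cacna1a (-0.47 ± 0.12), Cacna1b (-0.53 ± 0.14), Cacna1c (-0.46 ± 0.13), Cacna1d (-0.51 ± 0.15), Cacna1e (-0.51 ± 0.15), Cacna2d3 (-0.60 ± 0.13), Cacnb2 (-0.54 ± 0.14), Cacnb4 (-0.77 ± 0.14), Cacng2 (-0.46 ± 0.12), Cacng7 (-0.31 ± 0.09), Scn1a (-0.53 ± 0.15) and Scn8a (-0.45 ± 0.12). Of these 11 are at least 100 kb long, Cacng7 being the shorter one.

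Gene length moved with the interaction. Over the 39 members Spearman's rho between gene length and the 4 h interaction was -0.735, and over all 16959 genes -0.520, both given as a description, since all genes share the libraries. Genes 100 kb or longer held 56.9% to 63.5% of a library's counts over the 20 libraries. With the length correction the members' median interaction at 4 h was -0.11 and that of all genes -1.53e-05. That fit called 0 genes, and 3 members had an unadjusted edgeR p under 0.05, against 1464 of all 16959 genes. The part of gene length, or of any single library, in the members' interaction was not tested.

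**Figure D4:**
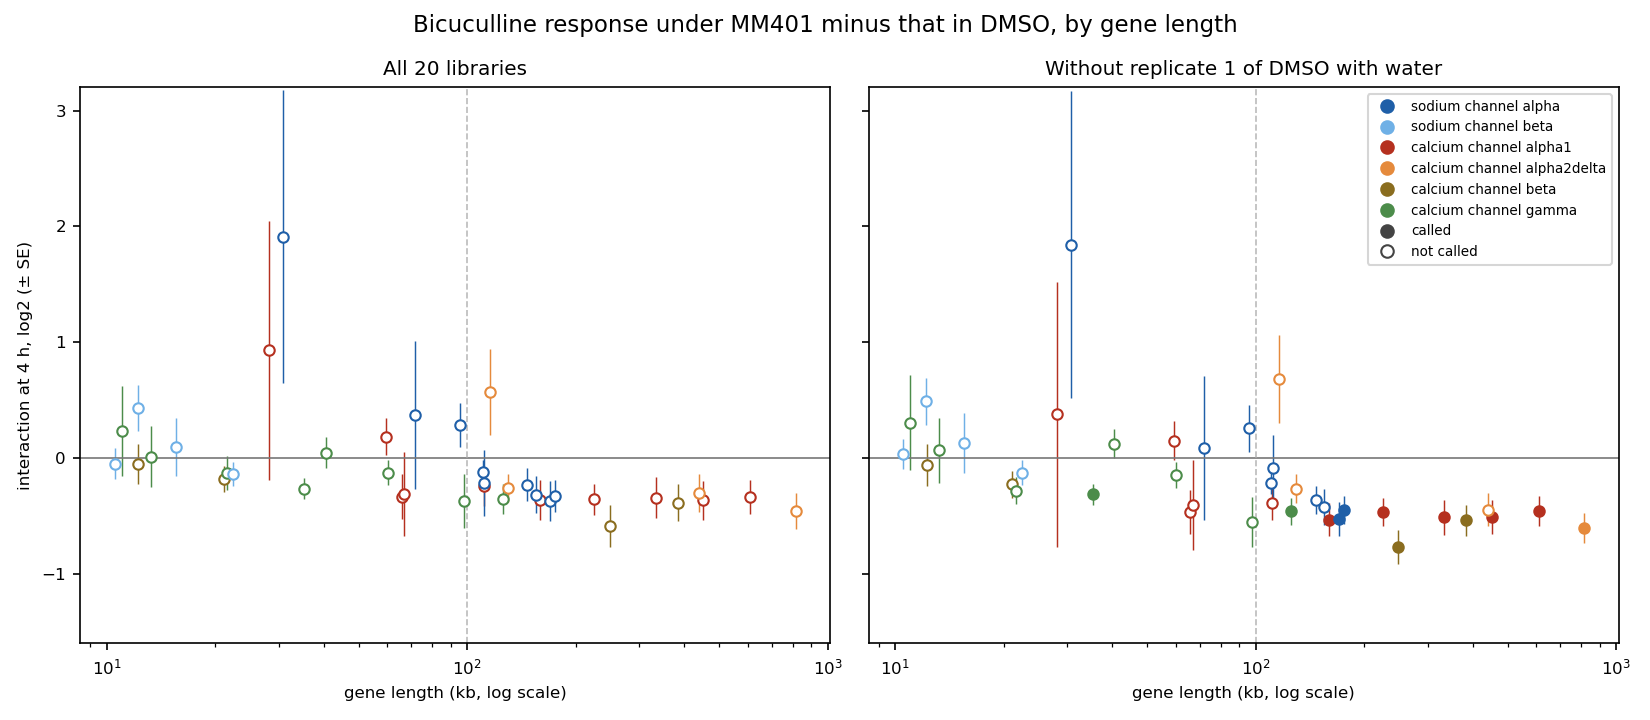
Interaction at 4 h (bicuculline response under MM401 minus that in DMSO, log2 ± SE) against gene length on a log axis for the 39 tested members, with all 20 libraries (left) and without DMSO water replicate 1 (right); filled symbols pass an adjusted p of 0.05 and the dashed line marks 100 kb. None is called with all libraries and 12 are without that one, 11 of them at least 100 kb long.

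Genes whose proteins act with these channels, but which are not members, were read from 3 lists. Sodium channel partners (the intracellular fibroblast growth factors, ankyrins, neurofascin and others that hold or tune the channels) had 2 of 10 higher at 1 h in DMSO and 6 of 10 at 4 h with no gene lower. Of all genes tested 20% were higher at 1 h in DMSO, and 23.7% higher and 25.5% lower at 4 h. Of genes at least 100 kb long 44% and 50.1% were higher. Under MM401 2 of these partners were higher at 1 h (all genes: 18.1%), and at 4 h 1 was lower (all genes: 21.7%). Their medians at 4 h were 0.30 in DMSO and 0.01 under MM401, against -0.02 and 0.02 for all genes. The direction in DMSO turned on the scaling, with 2 higher and 2 lower at 4 h under plain library sizes and 3 and 1 with the length correction. Calcium channel partners (16 listed, Cbarp at 0) had 4 of 14 tested higher at 1 h in DMSO, and 6 higher and 2 lower at 4 h, with 4 higher at 1 h and 4 higher and 3 lower at 4 h under MM401. The shares of all genes were 20% higher at 1 h and 23.7% higher and 25.5% lower at 4 h in DMSO. Under MM401 they were 18.1% higher at 1 h and 23% higher and 21.7% lower at 4 h. The RGK proteins Gem and Rrad, small GTPases that bind the beta subunit and inhibit the channel, rose at 4 h: Gem by 1.19 ± 0.18 in DMSO and 1.502 ± 0.21 under MM401, and Rrad by 1.58 ± 0.23 and 1.498 ± 0.27 (edgeR adjusted p of 1.98e-05 or less in DMSO and 0.000102 or less under MM401). Stac, an adaptor that slows inactivation of L-type channels, rose by 1.17 ± 0.09 and 1.10 ± 0.10, while Stac3, the adaptor of muscle excitation-contraction coupling, fell with log2 values of -1.46 ± 0.18 and -1.69 ± 0.19. Rimbp2, which ties presynaptic calcium channels to release sites, fell with log2 values of -0.37 ± 0.09 and -0.63 ± 0.10.

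The sodium leak channel is related to the voltage-gated pores but is not gated in the same way. Its pore gene Nalcn fell at 4 h with log2 values of -0.23 ± 0.09 in DMSO and -0.60 ± 0.10 under MM401 (edgeR adjusted p = 0.0467 and 5.97e-05). The genes of its large partner proteins fell too: Unc79 at -0.38 ± 0.10 and -0.71 ± 0.11, and Unc80 at -0.51 ± 0.11 and -0.75 ± 0.12 (edgeR adjusted p of 0.0034 and 0.000576 in DMSO, and 2.71e-05 and 3.69e-05 under MM401). The DMSO call of Nalcn was lost without DMSO water replicate 1 (-0.08, edgeR adjusted p = 0.408) or any 1 of the 3 bicuculline libraries (-0.24 to -0.21), and with DESeq2 (-0.21). The list has 9 names, of which 6 were tested, and 3 were lower at 4 h in DMSO (all genes: 25.5%). Under MM401 1 was higher and 3 lower (all genes: 23% and 21.7%). At 1 h the counts were 2 higher and 1 lower in DMSO (all genes: 20% and 24.5%) and 1 higher under MM401 (18.1%).

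Markers of the cells that a cortical culture can hold were read beside these results. Scn4b is a known gene of striatal projection neurons, and the 12 markers of those cells moved both ways: 7 were higher and 3 lower at 4 h in DMSO, and 7 higher and 2 lower under MM401. Of all genes tested 23.7% were higher and 25.5% lower in DMSO, and 23% and 21.7% under MM401. The receptor genes Adora2a and Drd2 fell with log2 values of -2.83 ± 0.16 and -2.06 ± 0.08 in DMSO and -2.67 ± 0.18 and -2.24 ± 0.09 under MM401 (edgeR adjusted p of 7.19e-12 or less in DMSO and 1.72e-10 or less under MM401), while Penk rose by 1.78 ± 0.13 and 2.15 ± 0.15 and Tac1 by 1.32 ± 0.13 and 1.40 ± 0.15. The summed level of the 12 was 1963 to 2399 CPM in DMSO water and 3017 to 3390.0 CPM with bicuculline at 4 h, and 2315 to 2475 and 2587 to 2894 CPM under MM401. Pde10a alone averaged 969 CPM in DMSO water and 1734 CPM with bicuculline, and the other 11 together 1149 and 1456 CPM. No marker of this list was at 0. Plain library sizes gave 4 of the 12 higher and 4 lower at 4 h in DMSO.

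GABAergic markers had 2 of 9 tested higher at 4 h in DMSO (all genes: 23.7% higher, 25.5% lower). The list summed to 359 to 393 CPM in water and 678 to 719 CPM with bicuculline. These sums were mostly Gad1 (149 and 267 CPM on average) and Gad2 (174 and 377 CPM), the 2 that were called, while the other 8 genes together averaged 51.3 and 54.5 CPM. Pvalb, which marks fast-spiking cells, had a mean of 0.265 CPM over all libraries. Glutamatergic markers had 3 of 7 higher and 2 lower, with sums of 665 to 836 and 1089.6 to 1173 CPM. Of the other lists at 4 h in DMSO, 1 of 8 astrocyte markers was higher (1150.1 to 1642 CPM in water, 1373 to 1497 CPM with bicuculline), as were 3 of 11 of the oligodendrocyte lineage (169.8 to 199 and 205 to 220.0 CPM). In the same comparison 2 of 7 microglial markers (35.4 to 41.6 and 42.6 to 51.4 CPM) and 2 of 7 vascular and fibroblast markers (11.7 to 12.3 and 13.5 to 14.9 CPM) were higher. Skeletal muscle markers summed to 0.551 to 0.829 and 0.637 to 0.863 CPM. At 4 h under MM401 4 of 9 GABAergic markers were higher (361 to 412 CPM in water, 620.1 to 693 CPM with bicuculline), 4 of 8 astrocyte markers (1113 to 1232 and 1368 to 1443 CPM), 4 of 11 oligodendrocyte markers (176 to 189 and 217 to 229 CPM) and 5 of 7 microglial markers (33.9 to 38.03 and 48.8 to 52.4 CPM), with 0 lower in each. There 1 of 7 vascular markers was higher, and 3 of 7 glutamatergic markers were higher and 2 lower. Of all genes tested 23% were higher and 21.7% lower in that comparison. With plain library sizes the 4 h counts in DMSO were 2 higher and 2 lower for the GABAergic list, 0 and 1 for the astrocyte and oligodendrocyte lists, and 0 and 0 for the microglial and vascular lists. Without DMSO water replicate 1 the astrocyte list had 0 higher and 1 lower, and the vascular list 0 of either. The part of any of these cell types in the members' changes was not tested.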

How the data were processed

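BrU-seq RNA was measured in 21 libraries of 7 groups, described by the labels as biological replicates; nothing more says how the cultures were separated, so p-values measure the spread between these samples. The deposited counts were made by the authors over whole genes on mm10 with featureCounts, per the file headers; Bowtie2, UMI-tools, deepTools and DESeq2 are also named, with no role, per the submitters' processing notes. Strand use, multi-mapping and annotation release are not given in the sources used here.

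The counts were tested with edgeR 4.0.16 in R 4.3.3: TMM scaling, filterByExpr (minimum count 10, minimum total 15) and a robust quasi-likelihood fit over all 20 libraries kept and 16959 genes, with Benjamini-Hochberg adjustment over all of them, a threshold of 0.05 and two-sided tests. Depth was 49886348 to 87939384 counts per library, and replicate pairs differed by more than sampling noise (chi-square per degree of freedom 6.17 to 78.5 over 19 pairs). CPM are TMM-scaled. Values in every library are given for members called with a fold of at least 1.5 in a 4 h comparison with water, and partner genes are named by the same rule. The members and all lists were chosen with earlier results of these data known. Results of 2 members are not reported here one by one, though the counts over members include them. In a test on simulated counts of 16726 genes for bicuculline against water at 4 h in DMSO, 45 of 50 genes changed 1.5-fold were recovered, 50 of 50 at each larger fold, with 11 false calls. Alternatives were DESeq2 1.42.0, plain library sizes, a gene length correction (loess, span 0.5), no filter, only the groups compared, the replicate block, all 21 libraries, and leaving out each library.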

Additional observations from a re-analysis of the deposited data

How the results depend on the processing

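The counts of called members moved by over 1.5 times under the following settings. Plain library sizes gave 18 calls at 1 h in DMSO and 19 at 1 h under MM401, against 11 and 10, and the gene length correction gave 21 and 19. For water at 4 h against 1 h under MM401, where edgeR called 0, DESeq2 and the gene length correction gave 1 each (275 and 257 of all genes). For the interaction at 4 h DESeq2 gave 2 (436 of all genes). The cause was not tested. Leaving out 1 library at a time gave 9 to 14 calls at 1 h and 19 to 23 at 4 h in DMSO, 9 to 12 and 16 to 20 under MM401, 0 to 6 for MM401 against DMSO in water and 0 to 12 for the interaction at 4 h; both upper ends came without DMSO water replicate 1. Plain library sizes turned the sign of the 4 h change in DMSO of Cacng7 (-0.10).

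Of the 24 calls at 4 h in DMSO 14 held in every fit without 1 library, as did 15 of 21 under MM401, 7 of 11 at 1 h in DMSO and 7 of 10 under MM401. With all 21 libraries the 4 h count under MM401 was 15. The replicate block gave 13, 25, 11 and 20 calls in the 4 comparisons with water (DMSO 1 h and 4 h, MM401 1 h and 4 h), and 0 for each interaction. At 4 h under MM401 the block ended the calls of Cacna1a (-0.25, edgeR adjusted p = 0.051) and Cacna1b (-0.29, edgeR adjusted p = 0.0504), and no other call of a member named here; without the filter that of Cacna1b was lost too (-0.34). Same-numbered libraries did not deviate together throughout: 25 of 57 correlations of their deviations were over 0.1, with a median of 0.0898, so the numbers were not used as pairs; for bicuculline at 4 h, DMSO against MM401, all 3 were over 0.1 and the block also gave 0 calls. Plain library sizes moved the median log2 change of all genes at 4 h to -0.30 in DMSO and -0.06 under MM401. Among single calls, fitting only the 2 groups compared ended those of Cacnb1 and Scn9a at 1 h in DMSO, Cacng4 and Cacng7 at 4 h in DMSO and Scn2b at 1 h under MM401, among others; DESeq2 ended those of Cacng4 at 4 h in DMSO and Cacng7 at 1 h under MM401. At 4 h in DMSO the SE of the log2 change was 0.47 for Scn11a, one of the least counted members, and 0.07 for Scn3a.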
